A study of Schmidtea mediterranea with 15 samples.

Results

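RNA abundance was followed for 157 transcript records of the planarian Schmidtea mediterranea that were abundant in trunk fragments at day 0, lower by day 3 of regeneration and scarce in juveniles. Planarians are flatworms that rebuild missing body parts from a pool of dividing stem cells. Animals of the sexual biotype are hermaphrodites. When mature they carry testes, ovaries, yolk glands and a copulatory apparatus, and these organs are known to regress after amputation and to be rebuilt as the body regrows, while juveniles hold only early germ cells. This is background: the deposited table does not pair its records with gene names, so none of the 157 can be assigned to an organ or a pathway here, and no sequence of them was used.

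The series held 15 libraries of poly(A) RNA from animals of the Sexual S2F2 biotype, in 5 groups of 3: trunk fragments at day 0, regenerating trunk fragments at days 3, 5 and 7, and whole juvenile animals. The labels name no treatment, genotype or age beyond these, do not say how mature the fragmented animals were, and do not say whether a replicate is 1 animal or a pool, so p-values below measure the spread between these samples, part of which may be technical. Stage and body part cannot be told apart where juveniles are set against trunk fragments. Total counts per library ranged from 20338464 to 34569921 at day 0, from 36859187 to 52422628 at day 3, from 36927291 to 59034917 at day 5, from 45862344 to 50684775 at day 7 and from 25735815 to 37791352 in juveniles.

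The records were chosen on counts scaled to a library total of 1000000 (CPM), averaged over the 3 libraries of a group. Of 92053 records, 91522 carried GDAG identifiers, and 157 of these had a day 0 mean of at least 50 CPM, a juvenile mean of at most 25% of day 0, and day 7 and day 3 means of at most 50% of day 0. Contrasts among day 0, day 3, day 7 and juveniles are therefore given as descriptions. Day 5 did not enter the choice, but each test of it sets it against a group that did. In these tests 1 side was therefore chosen, and the direction this favours is named beside each. Test counts for day 7 against day 3, which both entered the choice, are printed as a description only. All 157 passed the low-count filter of the tests, which they had to, since each was high at day 0. A further 7 records with other identifiers met the same bounds. Of the 157, 5 had a record with another identifier, whether or not it met the bounds, within 10% of their count in all 12 trunk libraries.

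Together the 157 records held 4.81%, 5.69% and 5.71% of the counts in the 3 day 0 libraries. They held 2.33%, 1.72% and 2.89% at day 3, 1.68%, 1.47% and 1.95% at day 5, and 1.003%, 0.316% and 0.687% at day 7. In juveniles they held 0.0498%, 0.0387% and 0.0590%. The group means were 5.40% ± 0.518 at day 0, 2.32% ± 0.586 at day 3, 1.70% ± 0.239 at day 5, 0.669% ± 0.344 at day 7 and 0.0492% ± 0.0102 in juveniles (SD, n = 3 each). The summed shares of day 0 and day 3 did not overlap, and those of day 7 lay below those of day 5. In whole fragments, fewer cells of a type and less RNA per cell cannot be told apart.

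A record retained a median of 39.8% of its day 0 level at day 3, with a range of 21.2% to 49.97%. The median was 39.9% at day 5 (range 9.26% to 68.0%), 9.17% at day 7 (range 1.29% to 35.0%) and 1.22% in juveniles (range 0.0958% to 21.9%). Without day 0 replicate 3 the medians over the 157 were 61.4% at day 3 and 63.5% at day 5, and without day 3 replicate 3 the day 3 median was 22.1%. The records were reduced at day 3 and not lost: their day 3 means were 1.79 to 358 times those of juveniles, with a median of 33.5 times. At day 0, 8 records had a mean of at least 1000 CPM and 88 a mean under 100 CPM. In juveniles 64 had a mean under 1 CPM and 8 a mean of at least 10 CPM, and 0 of the 157 were without counts in all juvenile libraries.

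The members nearest the bounds were as follows. The lowest day 0 mean inside the bound was 50.1 CPM (GDAG01005197.1), and the highest outside was 49.8 CPM (GDAG01025161.1). The day 3 mean of GDAG01007881.1 was 49.97% of day 0, and that of the nearest excluded record, GDAG01079824.1, was 50.1%. The highest juvenile level inside was 21.9% of day 0 (GDAG01043846.1), and the lowest outside 26.2% (GDAG01015745.1). GDAG01043846.1 also had the highest day 7 level, 35.0% of day 0. The day 7 bound removed 0 records that met the other 3, the day 3 bound removed 57 and the juvenile bound 4.

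The 157 records did not vary alike between replicates. After group means had been taken from log2 CPM (pseudocount 0.5 CPM) over the 12 trunk libraries, 1 component carried 90.7% of the variance of the deviations and the next 6.45%. With a correlation of at least 0.8, 108 records followed the leading component and are termed replicate-varying. The most abundant record, GDAG01019209.1, and 29 others that followed it made a class of 30, called below the records that followed GDAG01019209.1, and 19 followed neither. These classes were defined after the values were seen, on deviations that also hold each library's depth and makeup. The pattern of their replicate deviations is therefore a product of the definition. A correlation bound does not fix the size of the spread, but the leading component is shaped most by the records that vary most.

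**Figure D1:**
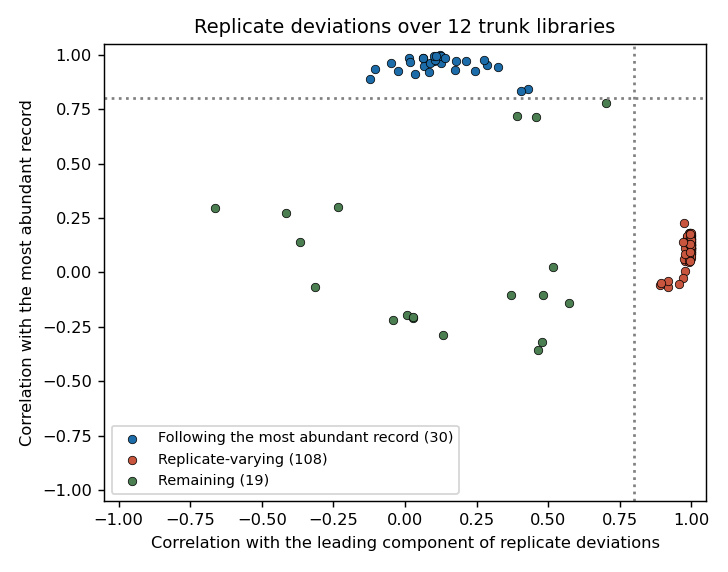
Each point is 1 of the 157 records, placed by the correlation of its replicate deviations (log2 CPM minus the group mean, 12 trunk libraries) with the leading component (x) and with the most abundant record (y); dotted lines mark 0.8. The 108 replicate-varying records form a tight group at the right, the most abundant record and the 29 that follow it lie at the top, and the remaining 19 are scattered.

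The 30 records that followed GDAG01019209.1 were the most abundant part. Their summed share of counts was 3.44%, 4.02% and 2.85% in the day 0 libraries, 1.72%, 1.20% and 1.61% at day 3, 1.13%, 0.707% and 0.946% at day 5, 0.809%, 0.221% and 0.336% at day 7, and 0.00923%, 0.00585% and 0.00847% in juveniles. Each of these 30 fell in mean at every step from day 0 to juveniles, as did 18 of the 19 that followed neither and 41 of the 108 replicate-varying records. Their medians were 43.1% of day 0 at day 3, 25.7% at day 5, 14.0% at day 7 and 0.198% in juveniles. Day 7 replicate 1 was the highest and day 7 replicate 2 the lowest day 7 library for all 30.

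GDAG01019209.1 alone stood at 10816, 12466 and 9103 CPM at day 0. It was at 5184, 3739 and 5031 CPM at day 3, at 3111, 1861 and 2861 CPM at day 5, at 2163, 625 and 837 CPM at day 7, and at 23.6, 9.98 and 19.1 CPM in juveniles. The groups did not overlap from day 0 to day 5, whereas day 7 replicate 1 lay above day 5 replicate 2. Its record kept 43.1% of the day 0 level at day 3, 24.2% at day 5 and 11.2% at day 7.

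The next 3 in abundance moved with it. GDAG01007881.1 had 5039, 6690 and 3701 CPM at day 0, 2934, 2071 and 2705 at day 3, 2154, 1293 and 1651 at day 5, 1632, 387 and 633 at day 7, and 11.1, 6.46 and 7.84 in juveniles. GDAG01008860.1 went from 4137, 4939 and 4259 CPM at day 0 through 2078, 1372 and 1982 at day 3 and 1415, 976 and 1159 at day 5 to 876, 285 and 485 at day 7, with 10.2, 6.09 and 10.6 in juveniles. For both, day 3 replicate 2 and day 7 replicate 2 were the lowest of their groups. GDAG01064013.1 had 4005, 4469 and 3002 CPM at day 0, 2178, 1451 and 1947 at day 3, 1457, 893 and 1135 at day 5, 1069, 267 and 405 at day 7, and 7.27, 4.45 and 6.75 in juveniles.

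The lowest ratio of day 3 to day 0 among the 157 was also in this class. GDAG01051385.1 had 78.5, 60.5 and 45.4 CPM at day 0 and 14.5, 11.0 and 13.5 CPM at day 3, or 21.2% of day 0. It was the 1 record that would pass a bound of 25% of day 0 at day 3. It had 6.86, 5.96 and 6.89 CPM at day 5, 7.29, 1.37 and 2.05 at day 7, and 0.155, 0.291 and 0.361 in juveniles. GDAG01005197.1, the least abundant member, had 53.2, 65.9 and 31.2 CPM at day 0, 22.6, 18.4 and 18.3 at day 3, 14.6, 7.69 and 10.3 at day 5, 14.9, 3.62 and 5.07 at day 7, and 1.67, 1.93 and 2.38 in juveniles. Here day 7 replicate 1 was higher than each day 5 library.

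**Figure D2:**
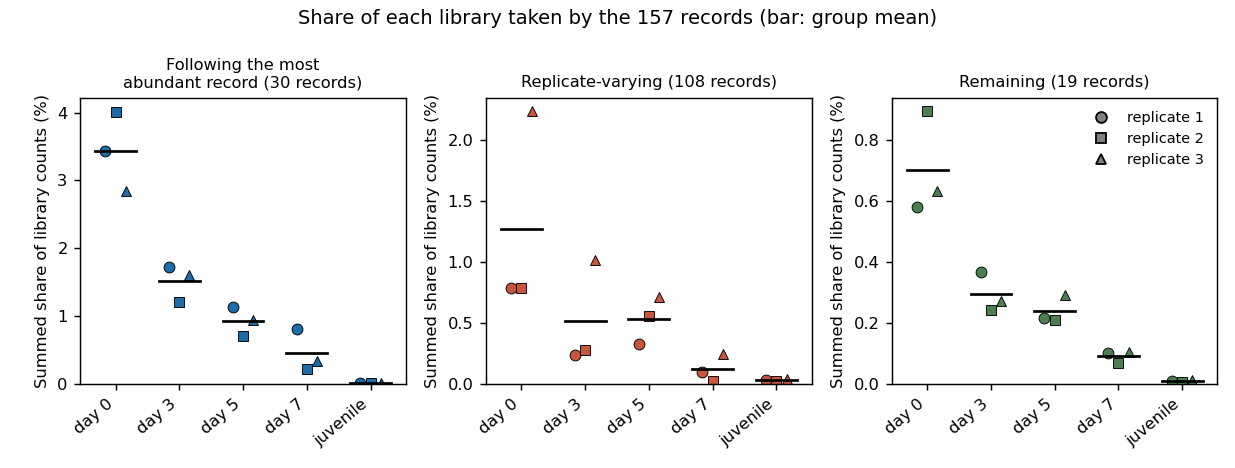
Summed share of library counts in percent (y, from 0, a separate scale per panel) by group (x) for the 3 classes of records; symbols are the 3 libraries of a group and bars their mean. The 30 records at the left step down from 3.43% to 0.455% between day 0 and day 7, whereas the replicate-varying records rest on replicate 3 at days 0 and 3.

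The 108 replicate-varying records took 0.788%, 0.783% and 2.23% of the day 0 libraries, 0.239%, 0.280% and 1.02% at day 3, 0.329%, 0.555% and 0.711% at day 5, 0.0934%, 0.0252% and 0.246% at day 7, and 0.0314%, 0.0263% and 0.0379% in juveniles. Replicate 3 was the highest library for all 108 at day 0, at day 3 and at day 7. Day 3 replicate 3 thus lay above day 0 replicates 1 and 2 in summed share. Day 7 replicate 2 was the lowest day 7 library for all 108, and at day 7 the highest library exceeded the lowest by a median of 12.7 times. In day 7 replicate 2 their summed share was below that of each juvenile library.

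GDAG01015247.1 had the largest spread of the 157, with an SD of 1.26 in log2 CPM within trunk groups. It stood at 187, 187 and 543 CPM at day 0, at 53.5, 62.1 and 238 CPM at day 3, at 72.0, 133 and 166 CPM at day 5, at 18.5, 3.05 and 51.2 CPM at day 7, and at 1.63, 1.14 and 3.03 CPM in juveniles. Its day 3 and day 0 libraries overlapped, and day 7 replicate 2 was nearest to the juveniles.

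For these 108 records the ratio of day 3 to day 0 moved with replicate 3 of both days. Their median level at day 3 was 38.8% of day 0 with all libraries, 63.7% without day 0 replicate 3, and 19.6% without day 3 replicate 3. Without both libraries it was 31.9%. At or under 50% of day 0 at day 3 were 0 of the 108 without day 0 replicate 3, and all 108 without day 3 replicate 3 or without both libraries. Without day 0 replicate 3 alone, the lowest day 3 level of the 108 was 52.5% of day 0, and 59 also had a day 0 mean under 50 CPM. By the day 3 bound, 0 of the 108 then met the rule. Of the 30 records that followed GDAG01019209.1, all 30 still met it, as did 17 of the remaining 19, and 18 further records came in to give 65. Leaving out day 3 replicate 1 or 2 kept 60 or 72 of the 108.

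**Figure D3:**
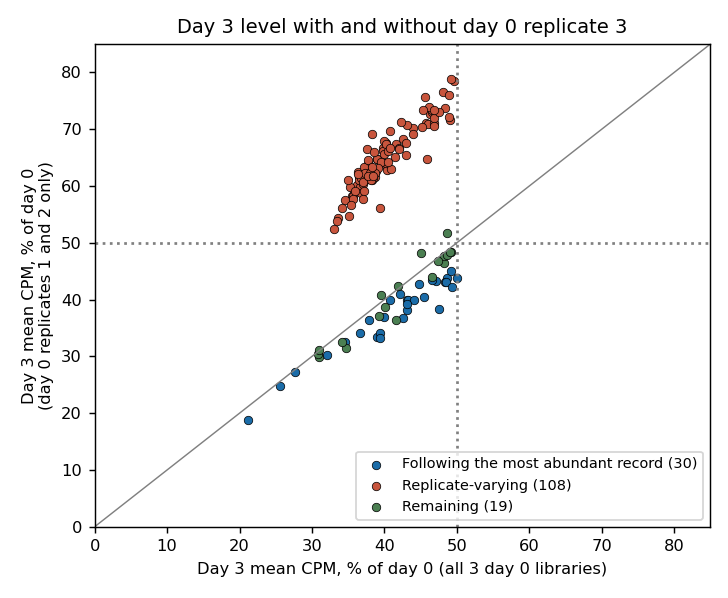
Day 3 mean CPM as a percentage of the day 0 mean for each of the 157 records, with all 3 day 0 libraries (x) and with day 0 replicates 1 and 2 alone (y); dotted lines mark 50% and the diagonal equal values. All 108 replicate-varying records move above 50% when day 0 replicate 3 is left out, and the 30 that follow the most abundant record stay below it.

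The contrast of day 3 with day 0 chose the records and is given as a description. In 50 of the 157 (31.8%) each day 3 library lay below each day 0 library, beside 6.26% of all 46736 records tested. These were 29 of the 30 records that followed GDAG01019209.1, all 19 of the remaining records and 2 of the 108 replicate-varying ones. Of the 57 records that only the day 3 bound removed, 32 (56.1%) showed this too, a larger part than of the 157. At day 7, which also entered the choice, each library lay below each day 0 library for all 157, beside 14.6% of all records.

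The summed share of the 19 remaining records averaged 0.703% ± 0.168 on day 0, 0.294% ± 0.0657 on day 3, 0.240% ± 0.0451 on day 5, 0.0921% ± 0.0198 on day 7 and 0.00943% ± 0.00306 in juveniles (SD, n = 3 each). They held the steadiest records. GDAG01039019.1, with the smallest spread of the 157 (SD 0.24 in log2 CPM within trunk groups), had 58.3, 76.1 and 70.2 CPM at day 0, 30.5, 30.8 and 24.1 at day 3, 16.7, 20.7 and 27.0 at day 5, 5.39, 6.15 and 7.12 at day 7, and 0.0777, 0.0265 and 0.181 in juveniles. Day 3 and day 5 overlapped here, and day 7 lay below both.

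Another of the 19, GDAG01041057.1, had the lowest ratio of day 7 to day 3 of all members. It went from 56.1, 59.2 and 49.6 CPM at day 0 through 20.2, 16.5 and 19.7 at day 3 and 7.71, 8.91 and 10.8 at day 5 to 0.391, 0.392 and 1.34 at day 7, with 0.117, 0.106 and 0.217 in juveniles. Successive groups did not overlap at any step. Its day 7 mean was 3.77% of day 3.

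GDAG01043846.1 was the 1 member of the 157 in which all day 5 libraries lay above all day 3 libraries, beside 6.09% of all records. It stood at 420, 359 and 327 CPM at day 0, 204, 103 and 127 CPM at day 3, 296, 226 and 229 CPM at day 5, 130, 135 and 122 CPM at day 7, and 77.2, 55.4 and 109 CPM in juveniles. Day 3 and day 7 overlapped, and day 7 lay above the juveniles in each library. Its day 7 mean was 89.2% of day 3, the highest ratio of the 157, and its juvenile mean of 80.6 CPM was the highest too.

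**Figure D4:**
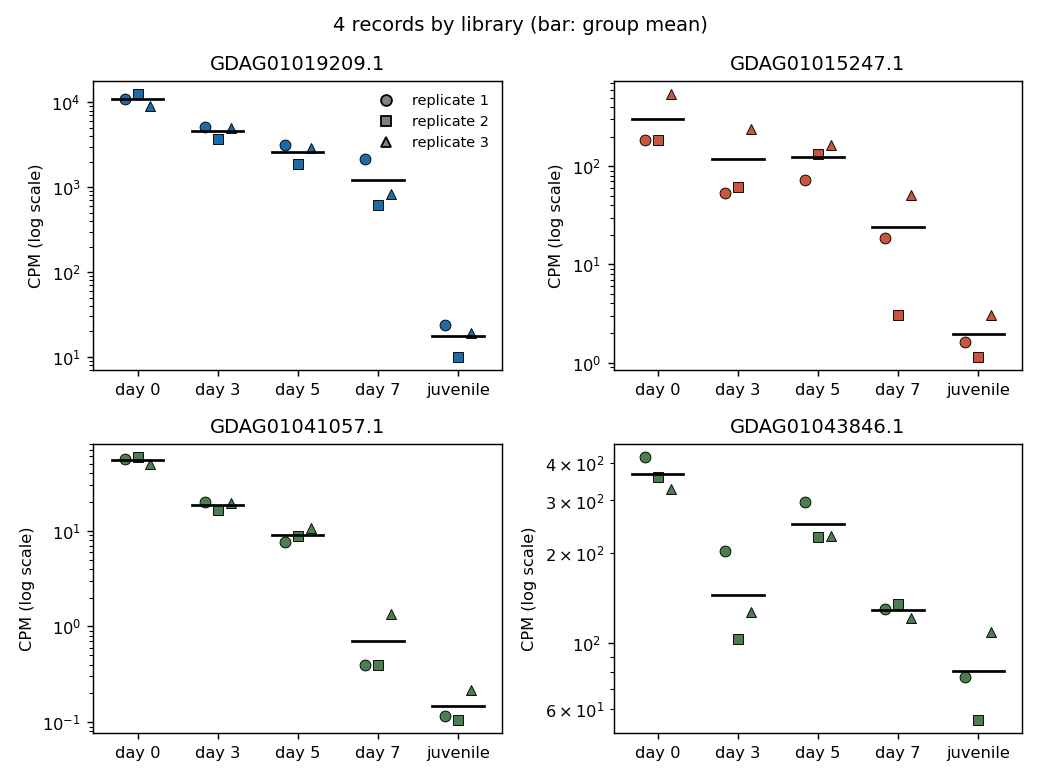
CPM on a log axis (y) in every library (symbols) with the group mean (bars), by group (x), for GDAG01019209.1, GDAG01015247.1, GDAG01041057.1 and GDAG01043846.1. The panels show a stepwise fall, a record high in replicate 3, a steep fall between day 5 and day 7, and a record that was higher at day 5 than at day 3.

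Several records may stand for 1 gene. With an SD of the log2 ratio of counts under 0.1 over the 12 trunk libraries, 104 of the 157 fell into 10 groups of near-proportional records, the largest of 77, and 53 had no such partner. All 77 were replicate-varying. A group was joined through any shared partner, and whether it holds fragments of 1 transcript or separate genes was not tested. Of the 19 remaining records, 4 that were named after their values were seen kept nearly fixed ratios to each other: GDAG01026591.1, GDAG01028949.1, GDAG01000191.1 and GDAG01021841.1, with day 0 means of 932, 719, 676 and 597 CPM.

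The day 5 libraries give a view that the rule did not use, although day 0 was chosen as high, which favours a lower day 5. At day 5, 148 of the 157 had a mean at or under 50% of day 0, and 23 were at or under 25%. In single libraries 156, 145 and 50 records were at or under 50% of the day 0 mean in day 5 replicates 1, 2 and 3. Without day 0 replicate 3 the 148 became 48, with 0 of the replicate-varying records among them. All day 5 libraries lay below all day 0 libraries for 143 of the 157 (91.1%), beside 10.3% of all records.

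Tested with edgeR's quasi-likelihood test and Benjamini-Hochberg adjustment over all 46736 records, day 5 was called below day 0 for 44 of the 157 (adjusted p under 0.05), beside 5.64% of all records. It was called above day 0 for 0 of them, beside 3.23%. The median log2 fold change was -1.48 over the 157 and -0.02 over all records. The 44 were 28 of the 30 records that followed GDAG01019209.1, 16 of the remaining 19 and 0 of the 108 replicate-varying ones. Of those 108, 4 had a lower day 5 at an unadjusted edgeR p under 0.05, beside 13.7% of all records. Their lowest edgeR adjusted p was 0.128. The classes were cut on deviations of the same libraries that make up the spread in this test. The split of calls by class is therefore not independent of how the classes were defined. The edgeR log2 change of GDAG01019209.1 was -2.18, with an SE of 0.47 and an adjusted p of 0.017. For GDAG01008860.1 edgeR gave -2.04, with an SE of 0.38 and an adjusted p of 0.0079, and for GDAG01064013.1 it gave -1.84, with an SE of 0.46 and an adjusted p of 0.033. GDAG01007881.1, at -1.72 with an SE of 0.48, did not pass in edgeR, with an adjusted p of 0.054. The 44 became 24 without day 5 replicate 2, beside 2.93% of all records.

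Between day 3 and day 5 the means of the classes are given as a description, since a difference between classes was not tested. Of the 30 records that followed GDAG01019209.1 all had a lower mean at day 5, at a median of 61.4% of day 3, and in 23 each day 5 library lay below each day 3 library, beside 7.1% of all records. The replicate-varying records were at a median of 104% of day 3, and 67 of the 108 had a higher mean at day 5. This order turned with single libraries: the median was 81.7%, 84.4% and 213% of day 3 without day 3 replicates 1, 2 and 3, with 9, 13 and 108 of the 108 higher at day 5. It was 125%, 102% and 85.0015% without day 5 replicates 1, 2 and 3, with 108, 61 and 25 higher. For the 30 that followed GDAG01019209.1 the same 6 values lay between 53.4% and 69.0%, with 0 higher. Among the 108 replicate-varying records, the highest library exceeded the lowest by a median of 2.34 times at day 5 and 4.34 times at day 3.

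In the edgeR test of day 5 against day 3, 0 of the 157 were called higher and 0 lower, beside 0.0171% of all records called higher and 0.00214% lower. An unadjusted p under 0.05 was found for 1 record that was higher and 12 that were lower, beside 2.72% and 3.77% of all records. These became 57 and 9 with replicate 3 of days 0 and 3 and replicate 2 of day 7 all left out, beside 8.63% and 4.43%. They were 0 and 27 in a fit of days 3 and 5 alone, beside 2.13% and 4.5%. Without day 7 replicate 1 they were 1 and 33, beside 2.9% and 3.35%. DESeq2 called 0 higher and 2 lower, beside 0.0792% and 0.0877%. The smallest p among members that were lower was that of GDAG01010253.1, which had 326, 472 and 356 CPM at day 0, 193, 91.4 and 72.8 at day 3, 25.1, 35.8 and 46.0 at day 5, 20.1, 25.4 and 21.8 at day 7, and 1.28, 1.08 and 1.59 in juveniles. Its edgeR log2 change from day 3 to day 5 was -1.76, with an SE of 0.35 and an adjusted p of 0.28. With all libraries in the fit, the 1 that was higher at the unadjusted p was GDAG01043846.1. For this record edgeR gave 0.79, with an SE of 0.28 and an adjusted p of 0.70. The day 3 level entered the rule as an upper bound, which favours a higher day 5.

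From day 5 to day 7 all 157 records had a lower mean, with a median log2 fold change of -2.04, beside 0.02 over all records tested. In 132 of them (84.1%) each day 7 library lay below each day 5 library, beside 14.3% of all records. These were all 108 replicate-varying records, 17 of the remaining 19 and 7 of the 30 that followed GDAG01019209.1, for which day 7 replicate 1 was high. Day 7 entered the rule as an upper bound, which favours a lower day 7.

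Of the 157, the edgeR test called day 7 below day 5 for 11 and above it for 0, beside 0.52% and 0.28% of all records. An unadjusted p under 0.05 was found for 129, all lower, beside 8.28% of all records lower at that p. The 129 became 33 without day 5 replicate 3, 50 without day 7 replicate 2, 53 without day 7 replicate 1 and 25 in a fit of those groups alone. In the same order, 4.79%, 5.15%, 5.59% and 8.39% of all records were lower at that p. The 11 were 9 of the remaining 19 records and 2 of the 30 that followed GDAG01019209.1, whereas 0 of the 108 replicate-varying ones passed, with a lowest edgeR adjusted p of 0.248. This split by class, too, is not independent of how the classes were defined. The 9 included GDAG01026591.1, GDAG01028949.1, GDAG01000191.1 and GDAG01021841.1, which were near-proportional to each other. The 2, GDAG01018852.1 and GDAG01079171.1, were near-proportional too, so the 11 calls are not all separate courses. The smallest p was that of GDAG01068431.1, which had 39.5, 58.8 and 53.9 CPM at day 0, 20.2, 20.6 and 19.5 at day 3, 12.1, 14.9 and 20.8 at day 5, 3.89, 3.38 and 4.95 at day 7, and 0.194, 0.159 and 0.289 in juveniles. Its edgeR log2 change was -1.96, with an SE of 0.21 and an adjusted p of 0.0015, and that of GDAG01041057.1 was -3.67, with an SE of 0.36 and an adjusted p of 0.0015. The most abundant record, GDAG01019209.1, at -1.11 with an SE of 0.46, did not pass in edgeR, with an adjusted p of 0.31. The 11 became 22 without day 7 replicate 1, beside 0.384% of all records, and 3 in a fit of those groups alone, beside 1.12%. DESeq2 called 74, beside 1.95% of all records.

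Day 7 was below day 3 in mean for all 157 records, at a median of 23.2% of day 3. Both levels entered the rule as bounds against day 0, so this contrast is a description. In 96 of the 157 (61.1%) each day 7 library lay below each day 3 library, beside 8.58% of all records, and in 0 above, beside 9.19%. Past the edgeR threshold were 20 lower and 0 higher, beside 0.787% and 0.424% of all records, from which nothing is read. The 20 became 44 without day 7 replicate 1, 13 without day 7 replicate 2 and 6 in a fit of those groups alone, and DESeq2 gave 85. In the same order, these stood beside 0.891%, 0.511%, 0.492% and 1.99% of all records.

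In log2 units of CPM per day, the 30 records that followed GDAG01019209.1 changed by a median of -0.40 between days 0 and 3, -0.35 between days 3 and 5 and -0.48 between days 5 and 7. The replicate-varying records changed by -0.45, 0.03 and -1.07 over the same intervals, and the remaining 19 by -0.41, -0.20 and -0.85. The plot of levels relative to day 0 shows these courses. They describe group means, and for the replicate-varying records they rest on the libraries named above.

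**Figure D5:**
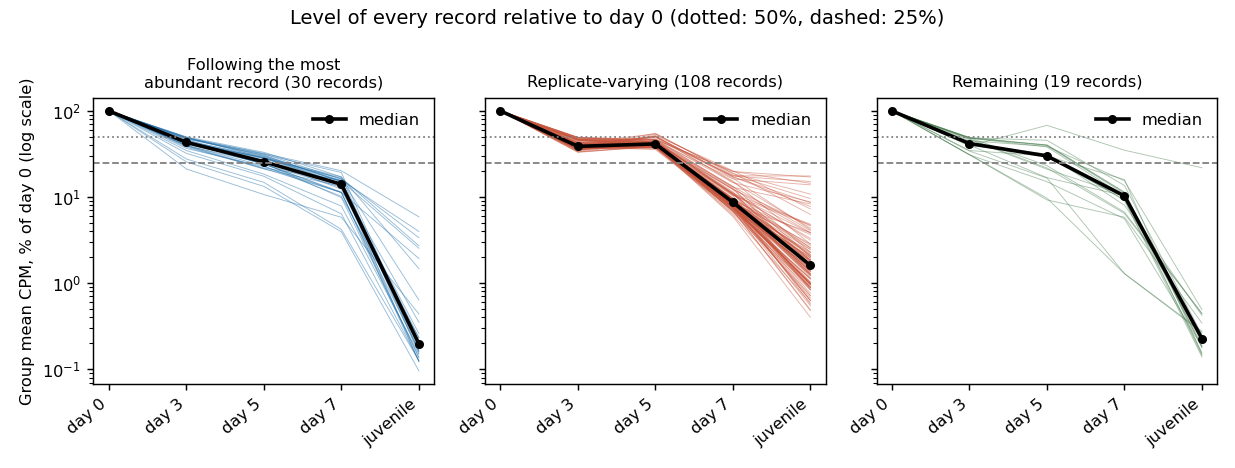
Group mean CPM of each of the 157 records as a percentage of day 0 (y, log scale) by group (x), with the median in black; the dotted line marks 50% and the dashed line 25%. The 30 records at the left fall at each step, the replicate-varying records have medians of 38.8% at day 3, 41.4% at day 5 and 8.68% at day 7, and the remaining 19 include 1 record, GDAG01043846.1, that is higher at day 5 than at day 3.

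Day 5 fragments remained far above juveniles. The edgeR test called day 5 above juveniles for 155 of the 157 and below them for 0, beside 11.9% and 7.52% of all records, with a median log2 fold change of 5.18 against -0.04 over all records. Juveniles were chosen as low, which favours this direction. The 155 became 93 without juvenile replicate 2, beside 5.64% of all records. At day 7, each library still lay above each juvenile library for all 30 records that followed GDAG01019209.1, all 19 of the remaining ones and 20 of the 108 replicate-varying ones, beside 7.73% of all records. Juveniles lay above day 7 in this way for 0 of the 157, beside 26.5% of all records. Both groups entered the rule, so this is a description.

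The set most like the 157 was that of the 57 records which met the same bounds except that their day 3 mean was above 50% of day 0. These 57 kept a median of 64.1% of day 0 at day 3, which their choice fixed, and 45.4% at day 5 and 21.4% at day 7, against 39.9% and 9.17% for the 157. The day 5 order turned without day 0 replicate 3, with medians of 44.4% for the 57 and 63.5% for the 157. Without that library the day 3 medians were 61.5% and 61.4%, and those of day 7 were 20.5% and 13.6%. All 57 also fell in mean at every step from day 0 to juveniles. At day 5 the 57 were at a median of 70.4% of day 3. In 33 of them each day 5 library lay below each day 3 library, beside 7.1% of all records. The summed share of the 57 was 2.85% ± 0.610 on day 0 and 0.525% ± 0.308 at day 7 (SD, n = 3 each). Most of both shares was held by GDAG01027988.1, with means of 19558 CPM at day 0 and 3383 CPM at day 7. Of the 57, 28 (49.1%) were called lower by edgeR on day 7 than on day 5, against 11 (7.01%) of the 157. Day 5 was called below day 0 by edgeR for 36 (63.2%) of the 57, against 44 (28%) of the 157, beside 5.64% of all records. The differences between the sets were not tested. The median SD of log2 CPM between day 7 replicates was 0.40 for the 57 and 1.49 for the 157.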

How the data were processed

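RNA-seq libraries were made from poly(A) RNA with a TruSeq RNA kit, per the labels' protocols. The deposited values are raw read counts per transcript record, not normalized, as judged from whole numbers with differing totals. The authors used Bowtie2, per the submitters' processing notes; its version, the counting step, the sequence set and the handling of shared reads were not given in the sources used here. CPM is a count divided by the library total over all records. Tests used edgeR 4.0.16 in R 4.3.3 (limma 3.58.1): filterByExpr (minimum count 10, minimum total 15) left 46736 records, TMM factors were 0.893 to 1.12, and 1 robust quasi-likelihood fit held all 15 libraries and modelled group alone (10 residual degrees of freedom). The SE printed with an edgeR log2 change is the size of that change divided by the square root of the test's F value. DESeq2 1.42.0 was an alternative. The fit was tested on simulated data. Replicate pairs of a group differed beyond counting noise (chi-square per record 5.38 to 34.2). The members were chosen with earlier results of these data known, and the ratios with day 0, day 3 or day 5 libraries left out by class were chosen after seeing the data. Named records are the 4 most abundant, those with the smallest p in each direction between days 3, 5 and 7, those with extreme ratios or spread, and those nearest the bounds. Organ marker lists could not be matched to identifiers and no list was tested.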

Additional observations from a re-analysis of the deposited data

How the results depend on the processing

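The choice of records depended on its bounds and on single libraries. In place of 157, the rule gave 69 records at a day 0 bound of 100 CPM, 391 at 25 CPM, 1 with day 3 at or under 25% of day 0, 103 with medians of replicates, and 5 when the highest later library was set against the lowest day 0 library. Leaving out 1 library at a time gave 65 to 202, the lowest without day 0 replicate 3. Counts at or under 50% of day 0 at day 5 ranged from 48 to 156 in the same way. Without the most abundant record the summed shares were 4.33% at day 0 and 1.44% at day 5.

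Calls varied with the test. For day 7 below day 5 (11 calls) DESeq2 gave 74, a fit of those groups alone 3, and single libraries left out 8 to 22. The shares of all records were 1.95%, 1.12% and 0.276% to 0.759%. For day 7 below day 3 (20 calls) the same settings gave 85, 6 and 13 to 44. With replicate 3 of days 0 and 3 and replicate 2 of day 7 all left out there were 13. Beside them stood 1.99%, 0.492%, 0.511% to 0.891% and 0.587% of all records. Both days entered the rule, so nothing is read from the counts of day 7 against day 3. For day 5 below day 3 (0 calls) DESeq2 gave 2 and single libraries left out 0 to 1, beside 0.0877% and 0% to 0.00991% of all records. For day 5 below day 0 (44 calls) single libraries left out gave 24 to 47, DESeq2 52 and the replicate block 52. The shares of all records were 2.93% to 5.99%, 6.6% and 8.41%. For day 5 above juveniles (155 calls) the same settings gave 93 to 156, 157 and 156, beside 5.64% to 12.9%, 13.6% and 13.9% of all records. With the replicate number as a block, day 7 was lower for 102 records against day 5 (4.62% of all records, 0.52% without the block) and 80 against day 3 (2.7%, 0.787% without). Same-numbered libraries did not all correlate above 0.1 in any of the 5 comparisons, and at most 2 of 3 libraries correlated best with their own number, so the numbers were not taken as pairs. The causes were not tested.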
